A study of Mus musculus with 8 samples.

Results

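The spots described here are the places on spatial sections of mouse intestine where messenger RNA of enteric neurons was most concentrated. A Visium slide captures RNA on printed spots, each of which can hold several cells of different kinds or part of one, and each captured molecule is counted once through its unique molecular identifier (UMI). Of all spots with at least 500 UMIs, the 5% of each section with the largest share of UMIs from 4 neuron genes were taken and are called neuron-marker spots. The genes were Uchl1, a ubiquitin hydrolase of neurons, Prph, the intermediate filament peripherin, Snap25, a protein of the synaptic fusion machinery, and Stmn2, a microtubule regulator of growing axons. The choice gave 448 of 8938 spots. In the small intestine 105 of 2094 spots of section 1 and 129 of 2571 of section 2 were chosen, and in the large intestine 105 of 2094 and 109 of 2179.

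The study, which concerns lymphatic signals to intestinal stem cells, holds 8 libraries. Of these, 4 are Visium libraries, with 2 sections of small and 2 of large intestine from mice labelled C57BL/6 and WT, cut at 10 µm from frozen intestinal tubes and stained by immunofluorescence. The labels give no treatment and the same genotype for both tissues, and they do not give age. The sections of a tissue are technical duplicates and spots are not replicates, so no test between groups was made. Values are given for each section, in the order section 1 and section 2, and intervals are exact 95% Poisson or binomial (Clopper-Pearson) intervals that cover counting error only. In such sections, fewer neurons in a spot and less RNA per neuron cannot be told apart.

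The enteric nervous system is a network of neurons and glia inside the gut wall. Its cell bodies sit in ganglia of the myenteric plexus, between the muscle layers, and of the submucosal plexus, and their fibres reach the muscle and the mucosa. Excitatory motor neurons use acetylcholine and tachykinins, inhibitory motor neurons use nitric oxide and vasoactive intestinal peptide, and sensory, secretomotor and interneurons carry further peptide combinations. The neurons arise from neural crest cells that need the receptor RET and the endothelin receptor EDNRB to colonize the gut.

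Peptide genes gave many of the largest differences described below, so the sequence before their start sites was read from a RefSeq promoter table (build GRCm38.p6). The 8-base word TGACGTCA, known as the cAMP response element, reads the same on both strands. It was searched in the 250 bases before the start of 22 genes for neuropeptides, granins and their processing proteins, of which 18 are in the table. The word was found for 4 of them (22.2%), against 478 of all 27025 genes (1.77%). The 4 stretches are shown with the word in capitals, each on its gene's strand, 5′ to 3′. In distance from the start, the word covers bases 112 to 105 before that of Cartpt, 78 to 71 before Pcsk1, 68 to 61 before Scg2 and 48 to 41 before Sst. The stretches lie at chr13:99900716-99900865 (minus strand, Cartpt), chr13:75089709-75089856 (plus strand, Pcsk1), chr1:79440027-79440164 (minus strand, Scg2) and chr16:23890845-23890962 (minus strand, Sst). A match of letters is a description and not evidence of a site in use.
Cartpt: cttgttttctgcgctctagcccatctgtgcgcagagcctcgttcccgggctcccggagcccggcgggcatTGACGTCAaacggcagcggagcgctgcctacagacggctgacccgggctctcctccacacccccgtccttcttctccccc
Pcsk1: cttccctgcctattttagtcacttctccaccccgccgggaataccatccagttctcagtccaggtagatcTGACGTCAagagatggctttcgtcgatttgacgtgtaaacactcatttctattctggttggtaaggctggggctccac
Scg2: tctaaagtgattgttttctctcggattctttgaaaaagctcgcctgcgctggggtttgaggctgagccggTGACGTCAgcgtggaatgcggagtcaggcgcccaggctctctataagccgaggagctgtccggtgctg
Sst: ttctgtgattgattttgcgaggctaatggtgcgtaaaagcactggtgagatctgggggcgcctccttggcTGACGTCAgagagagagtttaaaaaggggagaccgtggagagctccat

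Depth bears on these spots. Each section held 24356162 to 43833127 UMIs. Neuron-marker spots had medians of 10395 and 10993 UMIs in the small intestine, against 10188 and 8898 in the other spots, and of 9847 and 10824 in the large intestine, against 19861 and 20429. Mitochondrial genes made up 5.04% to 7.16% of the UMIs of neuron-marker and 5.04% to 5.84% of other spots, and the part of depth or of these shares in the ratios was not tested. A neuron-marker spot held a median of 9 and 16 UMIs of the 4 genes in the small and of 8 and 9 in the large intestine, and the lowest held 1 in each section. The 10 spots just inside the choice had 368 to 449 marker UMIs per 1000000 UMIs of the spot in section 1 of the small intestine, and the 10 just outside it had 345 to 366. In section 2 they had 681 to 721 inside and 618 to 677 outside, so the same 5% reached to a higher share there. In the large intestine the values were 406 to 449 inside and 355 to 402 outside in section 1, and 397 to 446 inside and 358 to 394 outside in section 2. The edge of the choice is thus a gradual one. Barcodes name slide positions and recur between slides: 997 to 1597 were shared by a pair of sections, and 0 to 10 of the shared ones were neuron-marker spots in both.

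The marker genes went together even when one of them took no part in the choice. When spots were chosen by Prph, Snap25 and Stmn2, Uchl1 stood at 581 and 900 CPM, the UMIs of a gene per 1000000 summed UMIs, in the chosen spots of the small intestine, against 15.9 and 25.9 CPM elsewhere. In the large intestine it stood at 379 and 476 CPM against 8.85 and 10.2. Its log2 ratios were 5.12 to 5.55 over the 4 sections. Left out in the same way, Prph gave log2 ratios of 5.21 to 5.87, Snap25 of 5.52 to 5.90 and Stmn2 of 5.07 to 5.55. All 16 of these values came from spots that the marker itself did not choose, and no section stood apart.

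Along the ranking by marker share, the 25 genes of neuronal structure declined step by step and without an edge at 5%. Summed over the list, the highest 1% of spots held 4968 and 7419 CPM in small and 4035 and 4595 CPM in large intestine. From there the level of section 1 of the small intestine fell by stages to 2921, 1202, 408, 259 and 82.1 CPM in the lowest 80% of spots, and the other sections had the same order. Spots ranked just below the choice therefore still carried RNA of these genes. Genes of enteroendocrine cells, listed apart, also varied along the ranking. Section 1 of the large intestine held 814 and 974 CPM of them at the 5% to 10% and 10% to 20% ranks, and 515 CPM below. In section 2 these sums were 784, 825 and 536 CPM. In the small intestine they were lower at those ranks than in the lowest 80%. The part of endocrine cells was not tested. Most of the glial sum in the other spots of the small intestine came from Erbb3, which was lower in neuron-marker spots there, as given below. Summed with this gene, markers of enteric glia did not run down the whole ranking in the small intestine. In section 1 they fell from 348 CPM in the highest 1% to 147 CPM between the 5% and 10% ranks and stood at 169 and 194 CPM below, and in section 2 they went from 416 to 164 and then to 188 and 205 CPM. Glial genes of the large intestine declined at each step, from 464 to 168 CPM in section 1 and from 415 to 166 CPM in section 2.

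**Figure D1:**
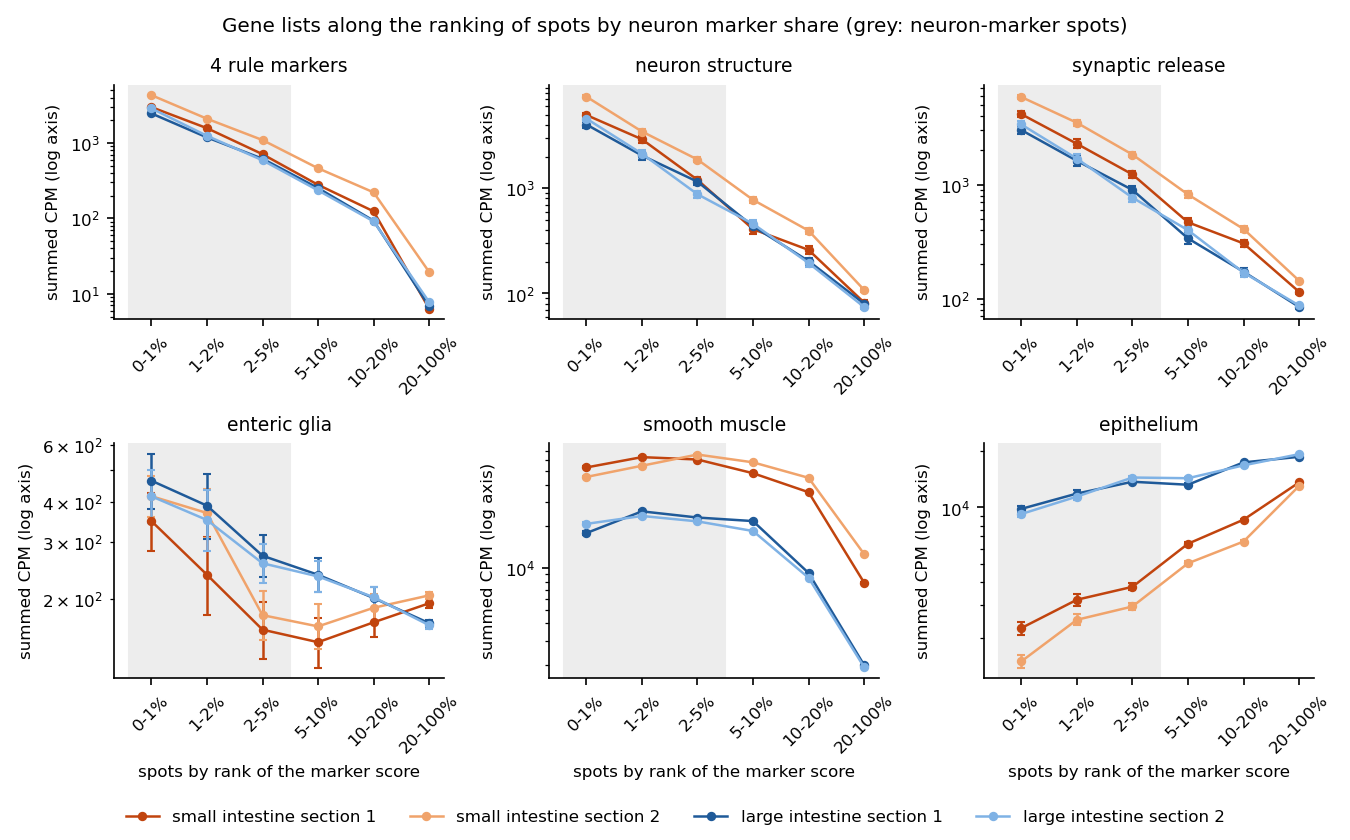
Summed CPM of 6 gene groups (log axis) in spots ranked by their share of the 4 marker genes, in bins from the highest 1% to the lowest 80%, for each of the 4 sections; bars are exact 95% Poisson intervals and the grey area marks the neuron-marker spots. Neuronal structure and synaptic release genes decline at each step from left to right, smooth muscle is high up to the 10% rank, and epithelial genes are lowest in the highest 1%.

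In the counts that follow, a gene is called higher where its CPM was at least 2-fold higher in neuron-marker than in the other spots and the interval lay off 0, in both sections of a tissue. A gene needed at least 100 UMIs over all kept spots of each section. By this rule 1771 of 10766 genes were higher in the small intestine (16.4%) and 1215 lower (11.3%). In the large intestine 1327 of 11880 were higher (11.2%) and 178 lower (1.5%). The same contrast chose the spots, so these counts and those of the lists are a description, and nothing is read from them. Scaling by the median of gene ratios moved the median gene by −0.45 to −0.36 log2 units and gave 1070 genes higher and 1893 lower in the small, and 908 higher and 553 lower in the large intestine. The log2 ratios over all other spots that are named here are larger than that shift.

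Of 123 listed neuron genes, the 4 choosing genes left out, 60 reached the minimum in the small intestine, and 52 of these were higher and 4 lower, namely Nts, Tbx3, Edn3 and Slc6a4, the serotonin transporter that the epithelium also makes. In the large intestine 62 reached it, with 57 higher and 0 lower. A listed gene that is rare outside neurons can reach the minimum only through the neuron-marker spots. The median log2 ratio of those that reached it was 4.35 and 4.51 in the small and 4.41 and 4.71 in the large intestine, beside 0.14 to 0.25 over all genes.

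Of 25 genes of the neuronal cell body and axon, 15 reached the minimum in the small and 17 in the large intestine, and all of those were higher. Elavl4, an RNA-binding protein of neurons known as HuD, stood at 136 and 184 CPM in small and 91.6 and 74.0 CPM in large intestine, against 0.846 to 3.71 CPM in the other spots. Its log2 ratios were 6.58, 5.63, 6.76 and 6.33. The 2 tissues did not overlap in its level, but they did so once set against the marker genes, at 9.36 and 8.03 UMIs per 100 marker UMIs in the small and 8.19 and 6.21 in the large intestine. Tubb3, the neuronal beta-tubulin, stood at 153 and 269 CPM in small intestine and 120 CPM in both sections of the large. Gap43, a growth cone protein, had log2 ratios between 5.6 and 5.75, the narrowest range of the genes named in this group. Neurofilaments were sparse: Nefm, the medium chain, gave 9 and 13 UMIs in the small and 22 and 33 in the large intestine.

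Of 24 genes of transmitter release, 14 reached the minimum in the small and 13 in the large intestine, and all of those were higher. Scg2, the precursor of secretogranin peptides in dense-core vesicles, stood at 538 and 988 CPM in small and 246 and 197 CPM in large intestine, so that the tissues did not overlap. Its log2 ratios over the other spots were 5.16 and 5.46 in the small and 5.80 and 5.53 in the large intestine. Sncg, which encodes gamma-synuclein, stood at 270 and 363 CPM in small and 284 and 364 CPM in large intestine, where the ranges overlap. Syt1, the calcium sensor of vesicle fusion, had log2 ratios of 5.62 to 6.66. Rims1, an active zone protein, went its own way: at 2.20 and 1.88 in the small and 2.87 and 2.76 in the large intestine its log2 ratio was the smallest of the release genes named here.

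Transcription factors and receptors of the neural crest lineage were present at lower counts. Ret stood at 92.3 and 145 CPM in small and 103 and 86.3 CPM in large intestine, which overlap. Its ratio was smaller in the small intestine (log2 3.25 and 3.60) than in the large (5.55 and 5.13), where the other spots held 2.19 and 2.47 CPM of it against 9.72 and 11.9 CPM in the small intestine. Gfra1, the co-receptor that presents GDNF to RET, had log2 ratios of 4.49 to 4.81. Ednrb stood only 1.00 to 1.34 log2 units higher. Against spots matched by muscle share, which are described below, its mean ratio in the large intestine changed sign. Of the 10 genes of RET and endothelin signalling, 5 of 6 that reached the minimum were higher in the small and 4 of 5 in the large intestine. The exception in the small intestine was Edn3, the ligand of EDNRB, which was lower at log2 −1.40 and −1.65. Against the muscle-matched spots only 3 of the 6 genes were higher in the small and 2 of the 5 in the large intestine.

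Hand2, another factor of the lineage, stood at 95 and 131 CPM in small and 80.4 and 64.8 CPM in large intestine. Of the 11 transcription factor genes, 7 reached the minimum in each tissue, with 5 higher in the small and 6 in the large intestine. Against spots matched by muscle share, which are described below, only 2 of the 7 were higher in the small and 3 in the large intestine. Tbx3, a T-box factor, was lower in neuron-marker spots of the small intestine, at 89.5 and 101 CPM against 181 and 238 CPM elsewhere. In the large intestine it was higher, at 40.2 and 30.1 CPM against 4.65 and 4.09 CPM. The level in the other spots thus differed more between the tissues than the level in neuron-marker spots.

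Of 13 listed channel and receptor genes of neurons, 2 reached the minimum in the small intestine, with 1, Chrna3, higher. Of 5 that reached it in the large, 4 were higher, among them Chrna3, Htr3a and P2rx2. Chrna3, a subunit of the nicotinic acetylcholine receptor, stood at 82.2 and 135 CPM in small and 107 and 80.2 CPM in large intestine, against 1.05 to 2.31 CPM elsewhere. Htr3a, the serotonin-gated channel, stood at 33.8 and 82.9 CPM in small and 103 and 93.3 CPM in large intestine, against 0.946 to 1.53 CPM elsewhere. P2rx2, an ATP-gated channel, stood at 24.7 and 40.2 CPM in small and 58.9 and 41.6 CPM in large intestine, against 0.860 to 1.2 CPM elsewhere, and like Htr3a did not reach the minimum in the small intestine. For both channels the sections of the large intestine lay above those of the small, but for each the intervals of the nearest pair overlap. Cnr1, the cannabinoid receptor, was among the genes outside the lists with the largest differences, with log2 ratios of 6.33 to 7.38.

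Cholinergic genes were detected unevenly. Slc5a7, the choline transporter, gave 51 and 111 UMIs in neuron-marker spots of the small and 36 and 39 of the large intestine, and Slc18a3, the vesicular acetylcholine transporter, gave 29 and 78 in the small and 24 and 37 in the large. Chat, the enzyme that makes acetylcholine, gave only 0 and 8 UMIs in the small and 0 and 2 in the large intestine. A level of Chat could therefore not be measured at this depth, although the transporters of choline and of acetylcholine were detected in every section. Dbh, which converts dopamine to noradrenaline, gave 65 and 82 UMIs in the small and 81 and 88 in the large intestine. Th, the enzyme that starts that pathway, gave 5 and 10 in the small and 0 in both sections of the large intestine. Tph2 and Slc32a1, genes of serotonergic and of GABA or glycine neurons, gave 0 UMIs in neuron-marker spots of all 4 sections, which does not exclude up to 3 UMIs in each, the floor used here for a count of 0.

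Among genes of inhibitory motor neurons, 4 of 6 reached the minimum in each tissue and those 4 were higher, among them Npy only in the small and Nos1 only in the large intestine, where alone they reached it. Vip, the precursor of vasoactive intestinal peptide, stood at 940 and 1085 CPM in small and 1192 and 860 CPM in large intestine. The tissues overlapped, and the log2 ratios over the other spots were 5.40 and 5.08 in the small and 6.87 and 6.07 in the large intestine. Gal, which encodes galanin, stood at 1468 CPM (1397 to 1541) and 1224 CPM (1169 to 1280) in the small and 108 CPM (89.6 to 130) and 86.3 CPM (71.1 to 104) in the large intestine. Both sections of the small intestine were far above both of the large, while the log2 ratio over the other spots was alike, at 6.66 and 6.08 in the small and 6.77 and 5.58 in the large intestine. Nos1, the neuronal nitric oxide synthase, stood at 53.9 and 77.1 CPM in small and 104 and 81.7 CPM in large intestine. The nearest sections had overlapping intervals, 63.8 to 92.2 CPM in small and 66.9 to 98.8 CPM in large intestine. Cartpt, the precursor of the CART peptide whose upstream stretch is shown above, stood at 223 and 227 CPM in small and 93.5 and 73.2 CPM in large intestine. Npy, neuropeptide Y, stood at 143 and 142 CPM in the small and, lower, at 65.4 and 40.1 CPM in the large.

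Of 10 other neuropeptide genes, 7 reached the minimum in the small intestine, with 5 higher and 1 lower, and 6 in the large, with all 6 higher. Tac1, the precursor of substance P, stood at 420 and 826 CPM in small and 361 and 353 CPM in large intestine. Penk, the enkephalin precursor, stood at 208 and 492 CPM in small and 336 and 358 CPM in large intestine, so that the large intestine lay between the sections of the small. Nmu, neuromedin U, stood at 245 and 681 CPM in small and 86.9 and 91.7 CPM in large intestine. For Nmu the tissues did not overlap, although the sections of the small intestine also lay far apart. Calcb, a calcitonin gene-related peptide, stood at 130 and 299 CPM in the small and at 45.8 and 64.0 CPM in the large. Sst, somatostatin, stood at 366 and 781 CPM and at 207 and 222 CPM, and is also made by enteroendocrine cells of the mucosa. Nts, neurotensin, which mucosal endocrine cells also make, was lower in neuron-marker spots of the small intestine, at 20.1 and 14.2 CPM against 112 and 101 CPM elsewhere.

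**Figure D2:**
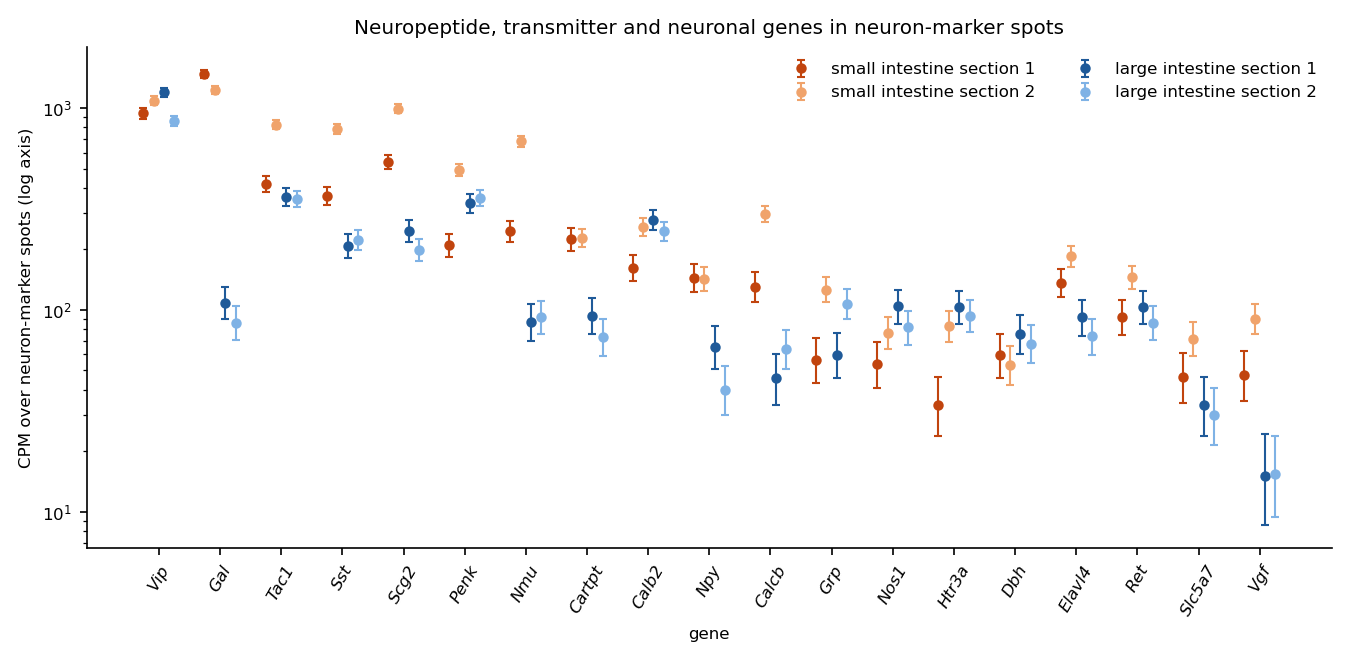
CPM (log axis) of 19 neuropeptide, transmitter, receptor and neuronal genes in the neuron-marker spots of each section, with exact 95% Poisson intervals. Gal lies at 1468 and 1224 CPM in the small and at 108 and 86.3 CPM in the large intestine, while Vip, Penk and Ret overlap between the tissues.

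The named genes with the largest differences outside the lists had various roles. Pcsk1n and Pcsk2, an inhibitor and an enzyme of prohormone cleavage, had log2 ratios of 4.67 to 5.31 and of 5.31 to 6.46. Ptprn, a protein of dense-core granules, stood at 136 and 240 CPM in small and 85.0 and 97.9 CPM in large intestine. Nsg2, a neuronal endosome protein, stood at 157 and 244 CPM and at 126 and 157 CPM. Among homeobox genes, which pattern the body axis, Hoxa5 had log2 ratios of 5.12 and 5.15 in the small but 2.57 and 2.66 in the large intestine, and Hoxb5 the reverse, 2.49 and 2.84 against 5.67 and 5.58. Levels of Hoxa5 in neuron-marker spots were 85.0 and 150 CPM in small and 75.7 and 76.3 CPM in large intestine, and those of Hoxb5 101, 174, 78.5 and 66.3 CPM. The other spots held 2.45 and 4.24 CPM of Hoxa5 in small and 12.7 and 12.1 CPM in large intestine, and 17.9, 24.4, 1.54 and 1.39 CPM of Hoxb5.

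Neuron-marker spots were also muscle-rich. The 12 smooth muscle genes made up a median of 6.11% and 5.79% of their UMIs in the small and 1.93% and 2.21% in the large intestine, against 0.312%, 0.592%, 0.0816% and 0.0752% in the other spots of the same sections. All 12 were called higher in both tissues. Their summed level was 59467 and 57347 CPM in small and 22533 and 21960 CPM in large intestine. Most neuron-marker spots were not among the most muscular ones, since 11, 7, 17 and 29 of them, in the order of the sections, belonged to the 5% of spots with the highest muscle share. Fibroblast genes were higher too, 6 of 6 in the small and 6 of 7 in the large intestine. All 8 epithelial genes were lower in neuron-marker spots of the small intestine. Those of the large had 1 lower and 7 neither higher nor lower, with medians of −0.60 and −0.66 log2 units.

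Each neuron-marker spot was therefore paired with the other spot of its section that had the nearest muscle share. Against these muscle-matched spots 231 genes were higher in the small (2.15%) and 197 in the large intestine (1.66%), and 25 (0.232%) and 4 (0.0337%) lower. Of the listed neuron genes 45 and 48 were higher and 0 lower, with medians of log2 2.59 and 2.71 in the small and 2.79 and 2.54 in the large intestine, beside 0.02 to 0.04 over all genes. None of the 12 smooth muscle genes was higher or lower, but their share was what the spots were matched on, so their summed level was set by the matching. Gal had log2 ratios of 5.29 and 4.27 in the small and 4.05 and 3.68 in the large intestine, Vip 3.19, 3.20, 4.51 and 3.17 in the order of the sections, and Elavl4 3.82, 4.10, 3.45 and 3.63. Ratios were smaller than against all other spots for each of these genes. Rims1 did not stand above muscle of equal share, at log2 0.11 and −0.05 in the small and 0.28 and −0.20 in the large intestine. Tbx3, lower than in all other spots of the small intestine, was at 0.29 and 0.28 against the matched spots there and at 2.84 and 2.16 in the large intestine. Pcsk1, a prohormone convertase whose upstream stretch is shown above, had larger ratios against matched spots in the small intestine (3.54 and 4.29) than against all other spots (2.24 and 2.54).

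Listed genes of glia, interstitial cells and macrophages that reached the minimum had smaller median ratios over the other spots than listed neuron genes. The 12 glial genes summed to 223 and 293 CPM in small and 335 and 308 CPM in large intestine, against 190, 202, 173 and 171 CPM in the other spots of the same sections. Of 4 that reached the minimum, 2 were higher and 1 lower in the small intestine, and 3 were higher in the large. The lower gene was Erbb3, a neuregulin receptor, at 38.4 and 37.6 CPM against 130 and 138 CPM elsewhere. Erbb3 thus made up most of the glial sum of the other spots there, so the sums of the small intestine do not describe glial genes in general. Against matched spots only L1cam, an adhesion molecule that neurons also make, was higher in each tissue. The defining glial genes were sparse but not at 0: Sox10 gave 6 and 21 UMIs in the small and 6 and 12 in the large intestine, Gfap 15, 33, 8 and 20, and S100b 32, 66, 17 and 19. S100b stood at log2 3.58 to 4.50 over the other and 1.5 to 2.41 over the matched spots without reaching the minimum. Of genes of interstitial cells of Cajal, the pacemaker cells beside the myenteric plexus, only Etv1 was higher than in matched spots, at log2 1.57 and 2.04 in the small and 1.69 and 1.88 in the large intestine. Kit, their defining receptor, was at 0.64, 0.23, 0.31 and 0.55. None of the macrophage genes was called higher. The part of glia, muscle and interstitial cells in the values of single genes was not tested.

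**Figure D3:**
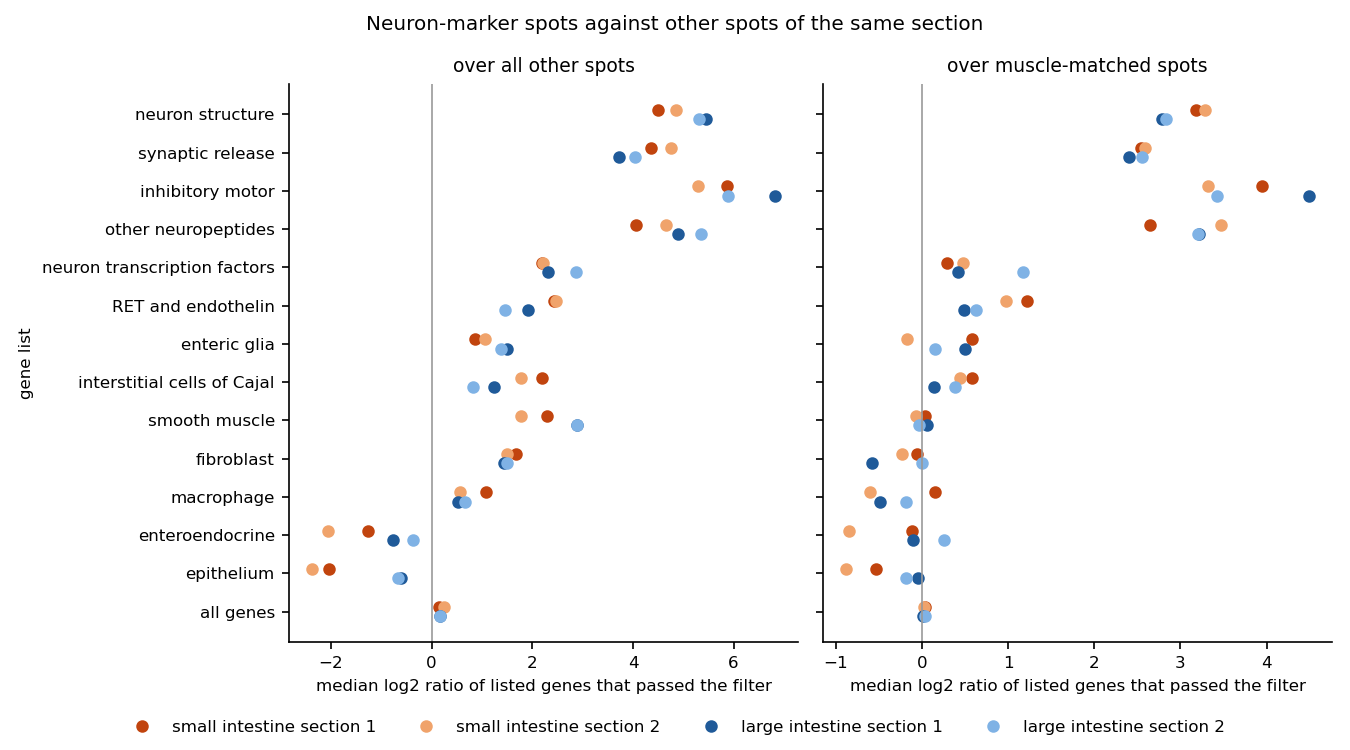
Median log2 ratio of the genes of each list that reached the minimum, in neuron-marker spots over all other spots (left) and over muscle-matched spots (right), 1 point for each of the 4 sections. Neuron structure, release and peptide lists lie above 2 log2 units on both sides. Smooth muscle moves from 1.79 to 2.88 on the left to −0.07 to 0.06 on the right, where the matching set it.

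Neuron-marker spots differed among themselves, and some genes were held by few of them. In section 1 of the small intestine, 50% of the Gal UMIs of all neuron-marker spots lay in 4 spots, and in the other sections in 3, 1 and 3. For Vip 7, 6, 4 and 5 spots held that share and for Sst 3, 5, 2 and 1. Map1b, a microtubule protein, needed 17, 12, 18 and 18 spots, Tubb3 16, 15, 17 and 13, and Scg2 17, 17, 16 and 14. The spread did not follow the kind of gene throughout, since the peptide gene Tac1 needed 6, 8, 10 and 7 spots and Nefl, a neurofilament gene with 26 to 62 UMIs per section, 7, 3, 6 and 9. The richest single Gal spot held 382 of 1606 UMIs and 506 of 1890 in the small intestine, or 23.8% and 26.8%, and 63 of 116 and 49 of 112 in the large, or 54.3% and 43.8%. A level of Gal in the large intestine thus rested on very few spots.

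To see which genes peaked in the same spots, 19 genes were compared pairwise across the neuron-marker spots of each section. The genes were picked after their values had been seen, all pairs within a section share its library, and the counts are sparse, so rank correlations are a description. Over 171 pairs the median of the mean Spearman's rho was 0.15 (n = 105 to 129 spots per section). By the mean over the sections Tac1 and Penk went together most, at rho 0.65 to 0.72, and 6 or 7 of their 10 richest spots were the same. Nmu and Calcb had rho 0.53 to 0.67 with 5 to 7 shared, Calcb and Grp, gastrin-releasing peptide, 0.49 to 0.68 with 4 to 7, and Nmu and Grp 0.48 to 0.60 with 4 or 5. These 3 genes formed a second group in each of the 4 sections. Vip and Dbh had rho 0.48 to 0.62 with 4 to 7 shared spots, and Vip and Npy 0.35 to 0.62 with 4 to 8. Npy and Dbh had rho 0.64 and 0.43 in the small and 0.34 and 0.22 in the large intestine, with 8, 5, 3 and 5 shared. Npy was found in only 7 spots of section 1 of the large intestine, so its 10 richest there include spots without it. Cartpt and Nos1 went together in the small intestine, at 0.66 and 0.60, and less in the large, at 0.25 and 0.43. Gal had rho 0.17 to 0.54 with Nos1 and 0.24 to 0.51 with Cartpt. These sets of genes were not separate throughout: Cartpt had rho 0.14 to 0.39 with Tac1 and 0.24 to 0.34 with Penk, and Nos1 had −0.01 to 0.33 with Tac1. Among pairs near 0 or below, Vip and Tac1 had −0.13 to −0.02 and shared 0 or 1 of 10, Tac1 and Dbh −0.25 to −0.11, and Gal and Npy −0.14 to −0.09 with 0 shared.

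**Figure D4:**
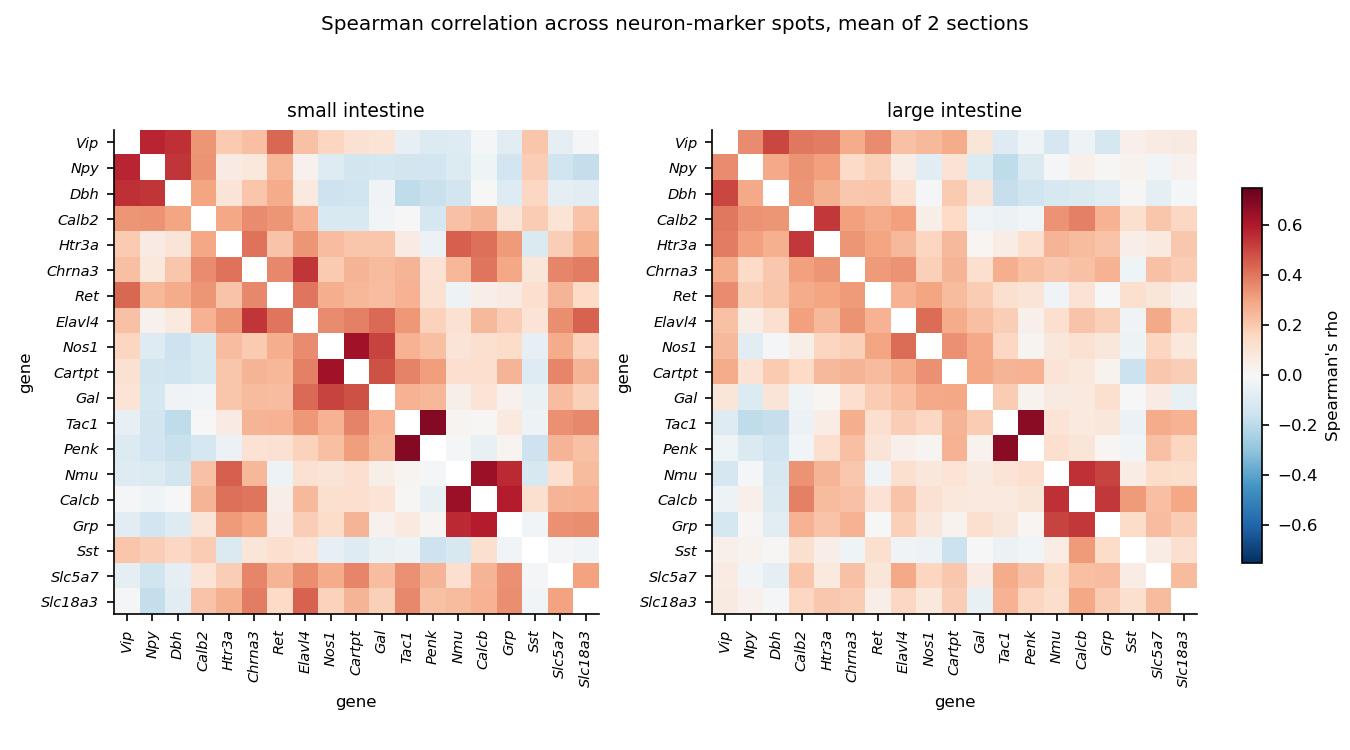
Spearman's rho of each pair of 19 genes across neuron-marker spots, as the mean of the 2 sections of the small (left) and large intestine (right), with red above and blue below 0. Blocks of Tac1 with Penk and of Nmu with Calcb and Grp appear in both tissues, the pairs of Npy with Vip and with Dbh are weaker in the large intestine, and the block of Nos1, Cartpt and Gal is fainter in the large intestine.

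The richest Vip spot held Npy and several Dbh UMIs in 3 of the 4 sections. It had 154 and 313 Vip UMIs in the small and 422 and 181 in the large intestine, beside 24, 55, 40 and 0 UMIs of Npy and 8, 4, 24 and 1 of Dbh. In those spots Tac1 gave 0, 1, 0 and 0 UMIs and Gal 0 in each. Muscle shares there were 2.69% and 0.949% in the small and 0.725% and 1.99% in the large intestine, each below the median of the neuron-marker spots of its section.

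Muscle share also ordered the spots as a group. Neuron-marker spots were split at their median muscle share, which gave 53 and 52, 65 and 64, 53 and 52, and 55 and 54 spots. The more muscular spots held less Vip: 622 against 1323 CPM and 492 against 1893 CPM in the small, and 600 against 1663 CPM and 642 against 1007 CPM in the large intestine. The log2 differences were −1.09, −1.94, −1.47 and −0.65, and −0.74, −1.57, −0.72 and −0.30 without the richest Vip spot. Gal was at −1.28, −1.44, −2.79 and −0.44, but at −0.68, −0.80, −1.47 and 1.04 without its richest spot, so its direction in section 2 of the large intestine rested on that spot. Tac1 showed no order common to the sections, at −0.60, 0.23, 0.12 and −0.40, and at −1.08, 0.59, −0.18 and −0.04 without its richest spot. Rims1 was higher in the more muscular spots of every section, at 1.32, 1.02, 1.91 and 1.82. In the small intestine the less muscular spots also held more of the Paneth cell genes of the crypt base, 63738 against 19144 CPM and 46596 against 9047 CPM, and more of the 4 choosing genes, 1883 against 1097 and 3055 against 1729 CPM. The choosing genes alone were 1235 against 971 and 1132 against 1283 CPM in the large intestine, where the sections differed in direction. The part of the plexus or wall layer in these differences was not tested, and spot positions were not used here.

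Between the tissues, a gene was counted where the lower section of one was at least 2-fold above the higher section of the other. In neuron-marker spots 471 of 10746 genes were higher in the small (4.38%) and 696 in the large intestine (6.48%). Among the 2081 genes that were higher in neuron-marker than in other spots of either tissue, 280 were higher in the small (13.5%) and 36 in the large intestine (1.73%). Section 2 of the small intestine held the most marker RNA, and the same genes were therefore also set per 100 UMIs of the 4 choosing genes. By that measure 54 were higher in the small (2.59%) and 84 in the large intestine (4.04%), so the direction of the balance depended on the scale.

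Gal was higher in the small intestine on both scales. The nearest sections differed by 3.5 log2 units in CPM and by 2.46 per marker UMI, at 101 and 53.4 Gal UMIs per 100 marker UMIs in the small and 9.70 and 7.24 in the large intestine. With the richest Gal spot of each section left out, the levels were 1133 and 921 CPM in small and 49.9 and 49.4 CPM in large intestine. In the other spots the nearest sections differed by 3.0 log2 units in the same direction, so the difference is not particular to the neuron-marker spots. With every spot thinned at random to 2000 UMIs, 28.2% (19.8 to 37.9) and 22.9% (15.7 to 31.5) of neuron-marker spots of the small intestine held a Gal UMI, against 4.81% (1.58 to 10.9) and 5.61% (2.09 to 11.8) of the large. Without thinning the shares were 49.5% and 45.7% and 16.2% and 33.0%. Thinning left out 2, 11, 1 and 2 shallower spots.

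Vip gave no such difference. After thinning, 43.7% and 37.3% of neuron-marker spots of the small and 37.5% and 42.1% of the large intestine held a Vip UMI, against 2.37% to 5.51% of the other spots, and the intervals of all 4 sections overlap. Elavl4 was found in 22.3% and 20.3% and in 15.4% and 14.0% of neuron-marker spots, and in 0.153% to 0.997% of the other spots.

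**Figure D5:**
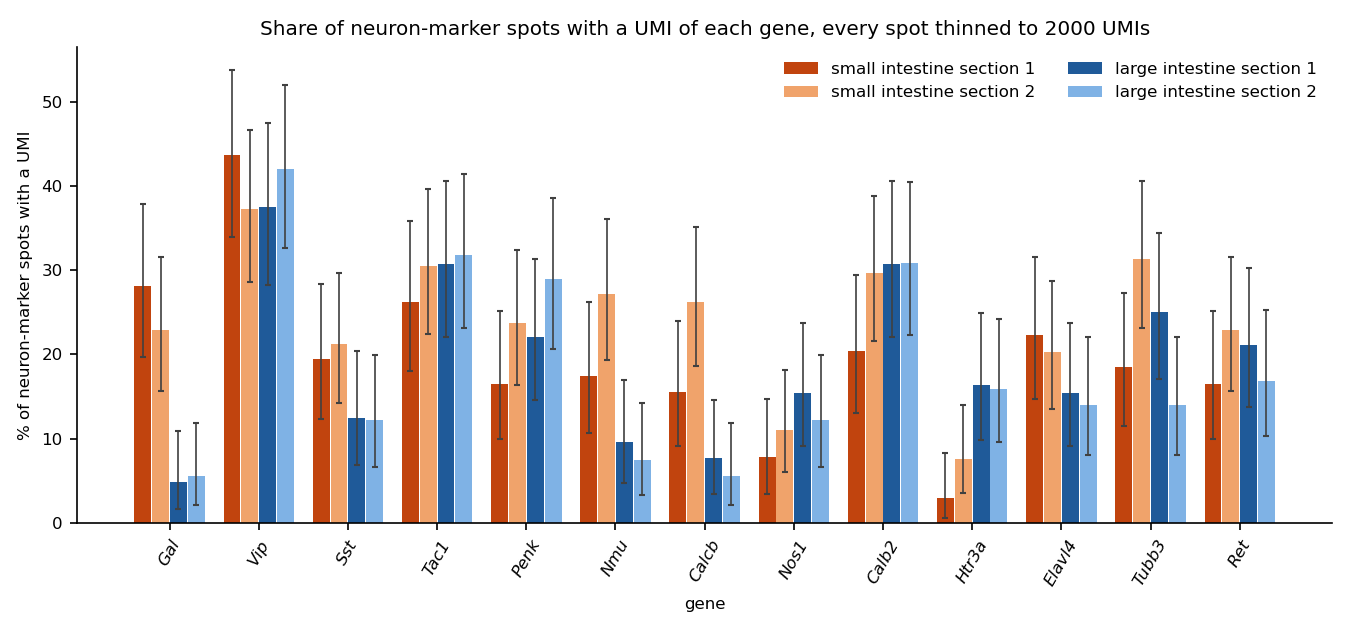
Share of neuron-marker spots with at least 1 UMI of each of 13 genes after every spot was thinned to 2000 UMIs, for each of the 4 sections, with exact 95% binomial intervals. For Gal the intervals of the small intestine (28.2% and 22.9%) lie above those of the large (4.81% and 5.61%), and for Vip and Elavl4 all 4 intervals overlap.

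Other neuron genes differed less, and some on 1 scale only. The same contrast in the other spots is not given for them, so they are not read as particular to neuron-marker spots. By its levels and ratios above, Scg2 was also higher in the other spots of the small than of the large intestine. Nmu was higher in the small intestine by 1.42 log2 units in CPM and 1.11 per marker UMI between the nearest sections, and Vgf, a secreted neuropeptide precursor, by 1.62 and 1.29. Nog, a secreted antagonist of bone morphogenetic proteins, differed by 2.17 and 1.19, at 19 and 27 UMIs in the small and 4 and 5 in the large intestine. Cartpt differed by 1.25 in CPM but 0.24 per marker UMI, Npy by 1.12 but 0.09, and Scg2 by 1.13 but 0.75. Calca, the other calcitonin gene-related peptide gene, gave 9 and 42 UMIs in the small and 0 in both sections of the large intestine. In the other direction Nefm was higher in the large intestine by −1.29 and −1.70 (small over large). Htr3a and Htr3b passed 2-fold only per marker UMI, at −1.11 and −1.12. Htr3a had 2.32 and 3.62 UMIs per 100 marker UMIs in the small and 9.20 and 7.82 in the large intestine.

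Of the genes that separated the tissues most, several followed the wall as a whole. Hoxc8 and Hoxc6, homeobox genes of the trunk, gave 85 and 118 UMIs and 41 and 70 UMIs in neuron-marker spots of the small intestine and 0 in those of the large. Hoxc8 was at least 4.77 log2 units higher in the small intestine, but against muscle-matched spots of the same section it was at 0.18 and −0.18. Rgs5, a gene of pericytes and smooth muscle, stood at 1506 and 1486 CPM in small and 135 and 124 CPM in large intestine, and at −0.13 to 0.10 against matched spots. For the large intestine the largest was Bglap, osteocalcin, with 1 and 5 UMIs in the small and 76 and 91 in the large intestine. It stood at log2 5.75 and 6.02 over the other spots of the large intestine and at 3.08 and 2.85 over the matched spots. Bglap has near-identical neighbouring copies, so the assignment of its UMIs is uncertain. Gnal, a G protein subunit, gave 2 and 4 UMIs in the small and 19 and 27 in the large intestine, and stood at 2.66 and 1.99 over the matched spots of the large intestine. Bglap and Gnal were thus higher in the neuron-marker spots of the large intestine than in muscle of equal share, which Hoxc8, Hoxc6 and Rgs5 were not in the small intestine.

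Genes higher in neuron-marker spots were to a large part shared by the tissues. The same marker genes chose the spots of both tissues, and these spots were muscle-rich in both tissues, so some sharing is built in. Among 10437 genes that reached the minimum in both, 993 were higher in both, which is 59.6% of the 1666 in the small and 85.5% of the 1162 in the large intestine. Against muscle-matched spots 126 were shared, 59.7% of 211 and 75.4% of 167. Over all genes tested in each tissue, 16.4% were higher in the small and 11.2% in the large intestine. Against matched spots these were 2.15% and 1.66%. The part of the shared choice of spots in this overlap was not tested, so the shares are a description with either reference.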

How the data were processed

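The authors deposited UMI counts per gene and spot, produced with Space Ranger 1.2.1 per the file headers of the Visium libraries. Build mm10 and Cell Ranger 6.0.1 stand in the submitters' processing notes. The counts are unnormalized. Of 32285 gene IDs, 32158 were in a table of gene names. Ccl21a is on 2 rows, of which the first was used. Spots under 500 UMIs were dropped, leaving 2094 to 2571 per section. Counts were summed over spots, scaled to CPM and compared as log2 ratios, with a count under 3 set to 3. Genes compared between tissues needed 40 UMIs over the neuron-marker spots. The 31 lists and the members were chosen with earlier results of these data known. Named outside the lists were the 10 genes with the highest log2 ratio of the lower section per tissue and reference (30 UMIs per section) and the 10 with the largest gap each way between tissues. Alternatives covered spot choice, scaling, filters, reference and left-out sections. Code was tested on simulated data. Python 3.11.15, numpy 2.4.6, scipy 1.17.1, pandas 2.3.3 and matplotlib 3.10.9 were used, with seed 0.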

Additional observations from a re-analysis of the deposited data

Results flagged for a closer look

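Tbx3 had opposite directions in the 2 tissues: its log2 ratio in neuron-marker over other spots was −1.02 and −1.24 in the small and 3.11 and 2.88 in the large intestine, and the difference was not tested. Pitx1, a homeobox gene of the hindlimb and gut, had −1.86 and −1.99 in the small and 1.68 and 1.51 in the large intestine, from 3 UMIs in each section of the small and 35 and 37 of the large, and this difference was not tested either. In the muscle-matched comparison Pitx1 stood at −1.97 and −2.46 in the small and 0.13 and −0.07 in the large intestine.

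Sst was lower in the more muscular of the neuron-marker spots of the small intestine, at log2 −2.16 and −1.67, and higher in those of the large, at 1.44 and 1.40; the difference was not tested. Without the richest Sst spot of each section the values were −1.49 and −1.30 in the small and 0.33 and −1.05 in the large intestine, so that the large intestine no longer had 1 direction.

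Neuron genes also gave UMIs in the single-cell libraries of sorted tissue, which the comparisons did not use. In the small intestinal library these were 14 UMIs of Uchl1, 99 of Snap25, 121 of Stmn2 and 13 of Elavl4, and Prph gave 3, no more than the floor used for a count of 0. In the large intestinal library they were 90 of Uchl1, 9 of Prph, 196 of Snap25, 669 of Stmn2 and 15 of Elavl4. No cell of either library had UMIs of at least 3 of the 4 choosing genes. The tissue libraries had 8842 and 8646 barcodes.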

How the results depend on the processing

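No paired analysis was possible because no model was fitted: section numbers name technical duplicates and every value is given per section. With no filter on low counts, 2955 genes were higher in neuron-marker spots of the small and 2199 of the large intestine, 99 and 97 of them listed neuron genes; at 5 times the minimum these were 533 and 449, and 9 and 11. Higher genes were 70.9% and 34.2% of all called genes in the small intestine at these settings, against 59.3%, and 72.5% against 88.2% in the large at 5 times the minimum. Median-of-ratios scaling gave 1070 (36.1% of called genes) in the small intestine and 62.1% in the large. Muscle-matched spots as the reference gave 231 and 197. Leaving out a section gave 2066 to 2777 in the small intestine, the highest without section 1, and 1761 to 1783 in the large, with 53 to 73 and 59 to 62 listed neuron genes.

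Between tissues, the top 2% of spots gave 272 genes higher in the small and 409 in the large intestine, 5 times the minimum 259 and 371, and levels per marker UMI 148 and 1547, or 8.73% in favour of the small intestine against 40.4%. Leaving out a section gave 458 to 821, the highest without section 1 of the small intestine, and 746 to 991. A common marker share of 681 CPM in all sections, added after seeing the data, left 67, 129, 65 and 64 spots and gave 1768 and 1308 genes, 52 and 57 listed ones, and 378 and 563 between tissues.

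Of 7194 values of 399 gene results under 21 settings, 8 that had been called higher or lower changed sign, all against muscle-matched spots: Tbx3 to 0.29, Nrtn to −0.10 and Myh11 to −0.039 in the small, and Pbx3 to −0.24, Meis2 to −0.22, Nrtn to −0.10, Ednrb to −0.064 and Myh11 to −0.029 in the large intestine. Myh11 is among the smooth muscle genes used for the matching. The cause of the sign changes was not tested. Values not called either way, such as the ratios of Ret and Vip between the tissues, also crossed 0 and are not among the 8. With 1 tissue sample each as far as the labels tell, differences between the tissues cannot be told apart from differences between the sampled pieces of gut, and duplicate sections of both tissues differed by more than counting error (chi-square per degree of freedom 3.38 in the small and 1.49 in the large intestine over neuron-marker spots, and 41.3 and 5.71 over all kept spots). For genes with few UMIs, such as Chat, counting error is large at this depth.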
